A study of Mus musculus with 16 samples.

Results

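Dual specificity MAP kinase phosphatases were followed in mouse dendritic cells given a lactic acid bacterium, through the probe sets whose annotated gene symbol was Dusp1, Dusp2, Dusp4, Dusp5, Dusp6, Dusp7, Dusp8, Dusp10, Dusp14 or Dusp16. All 10 genes were on the array, with 16 probe sets of the 45101 measured and among 18193 genes in all. The cells were grown from bone marrow of wild type C57BL/6 mice for 8 days with 15 ng/ml GM-CSF, the cytokine that drives this culture, and then held in fresh medium with 10 ng/ml GM-CSF. The NCFM groups received Lactobacillus acidophilus NCFM, a human gut isolate used as a probiotic, at 10 µg/ml and were harvested at 4 h, 10 h or 18 h, with 3 arrays at each time. The control groups had the same GM-CSF and no bacteria, with 3 arrays at 4 h, 2 arrays at 10 h and 2 arrays at 18 h.

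MAP kinase phosphatases switch off the kinases ERK, p38 and JNK by removing phosphate from both the threonine and the tyrosine of their activation loop. Bacterial ligands of Toll-like receptors activate these kinases in dendritic cells and macrophages, and many of the phosphatase genes are themselves transcribed in response to MAP kinase signals, which makes them feedback brakes on cytokine production. Dusp1, Dusp2, Dusp4 and Dusp5 encode inducible enzymes of the nucleus, Dusp6 and Dusp7 encode cytoplasmic enzymes that prefer ERK, Dusp8, Dusp10 and Dusp16 encode enzymes that prefer JNK and p38, and Dusp14 encodes a small atypical enzyme without the N-terminal kinase-binding domain of the others.

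The genes' promoters are shown first because Dusp1, a much studied target of CREB, and Dusp8 carry the same full CREB site, and Dusp1 rose on the arrays while Dusp8 passed no test. RefSeq (GRCm38.p6) promoter windows, 250 bases before to 50 bases after an annotated start, were available for 9 of the 10 genes, and Dusp4 was not among them. For Dusp7, Dusp8, Dusp14 and Dusp16 that start lay inside the annotated gene, so positions there count from an internal start. The genes of Dusp8 and Dusp16, on the minus strand, extend to chr7:142095907 and chr6:134807063, beyond their windows. The full cyclic AMP response element TGACGTCA was present in the windows of Dusp1 and Dusp8, and in 1.8% of 32534 mouse promoter windows. Its core TGACG, searched on both strands and contained in each full element, was present in the windows of Dusp1, Dusp2, Dusp5, Dusp8 and Dusp16, and in 20.9% of all windows. The kappa B outline GGGNNNNNCC was present in the windows of Dusp1, Dusp2, Dusp5, Dusp6, Dusp7, Dusp10 and Dusp14, and in 51% of all windows. The 250 bases before the start are printed 5′ to 3′ on the gene's own strand for 3 genes that rose (Dusp1, Dusp2, Dusp16), for Dusp6, which fell, and for Dusp8, which passed no test. Capitals mark the matches to the core element and to the kappa B outline, on either strand.
Dusp1: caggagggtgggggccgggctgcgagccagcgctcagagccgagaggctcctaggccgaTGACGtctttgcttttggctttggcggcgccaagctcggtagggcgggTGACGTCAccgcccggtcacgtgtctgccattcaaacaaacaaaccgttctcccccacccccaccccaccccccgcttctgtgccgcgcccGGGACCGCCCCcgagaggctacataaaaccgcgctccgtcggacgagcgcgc
Dusp2: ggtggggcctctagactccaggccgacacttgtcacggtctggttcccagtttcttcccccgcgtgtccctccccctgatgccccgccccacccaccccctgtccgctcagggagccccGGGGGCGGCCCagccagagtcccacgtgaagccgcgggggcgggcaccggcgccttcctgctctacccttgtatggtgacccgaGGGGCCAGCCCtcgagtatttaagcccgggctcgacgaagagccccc
Dusp16: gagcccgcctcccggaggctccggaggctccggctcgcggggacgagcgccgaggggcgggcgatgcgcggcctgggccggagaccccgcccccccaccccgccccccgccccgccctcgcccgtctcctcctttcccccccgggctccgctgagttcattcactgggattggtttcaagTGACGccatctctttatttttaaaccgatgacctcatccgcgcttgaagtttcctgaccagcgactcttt
Dusp6: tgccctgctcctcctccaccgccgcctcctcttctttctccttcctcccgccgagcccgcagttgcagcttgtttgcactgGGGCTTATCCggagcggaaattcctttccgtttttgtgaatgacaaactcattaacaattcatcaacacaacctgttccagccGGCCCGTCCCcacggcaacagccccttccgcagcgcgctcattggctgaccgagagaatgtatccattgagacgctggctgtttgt
Dusp8: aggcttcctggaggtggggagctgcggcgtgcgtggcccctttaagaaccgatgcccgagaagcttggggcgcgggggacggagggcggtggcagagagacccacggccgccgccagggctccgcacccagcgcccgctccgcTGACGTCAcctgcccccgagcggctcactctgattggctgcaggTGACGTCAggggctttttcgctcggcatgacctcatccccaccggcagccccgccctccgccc
These stretches lie at chr17:26508473-26508722 (minus strand) for Dusp1, chr2:127335909-127336158 (plus strand) for Dusp2, chr6:134792629-134792878 (minus strand) for Dusp16, chr10:99262981-99263230 (plus strand) for Dusp6 and chr7:142095285-142095534 (minus strand) for Dusp8. The full element of Dusp1 lay at bases -143 to -136 from the start, and Dusp8 held 2 full elements, at bases -107 to -100 and -63 to -56. The core match of Dusp2 lay after the start, at bases 6 to 10, outside the printed stretch. The AP-1 site TGANTCA was found in none of the 9 windows and in 7.79% of all windows, and the GAS element TTCNNNGAA was found in the window of Dusp14 and in 8.33% of all windows. The CArG outline CCNNNNNNGG was found in 8 of the 9 windows, all but Dusp6, and in 73.5% of all windows. The 9 windows had a median GC content of 68.7%, against 53% over all windows, and a match is a description of these letters, not evidence of binding.

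**Figure D1:**
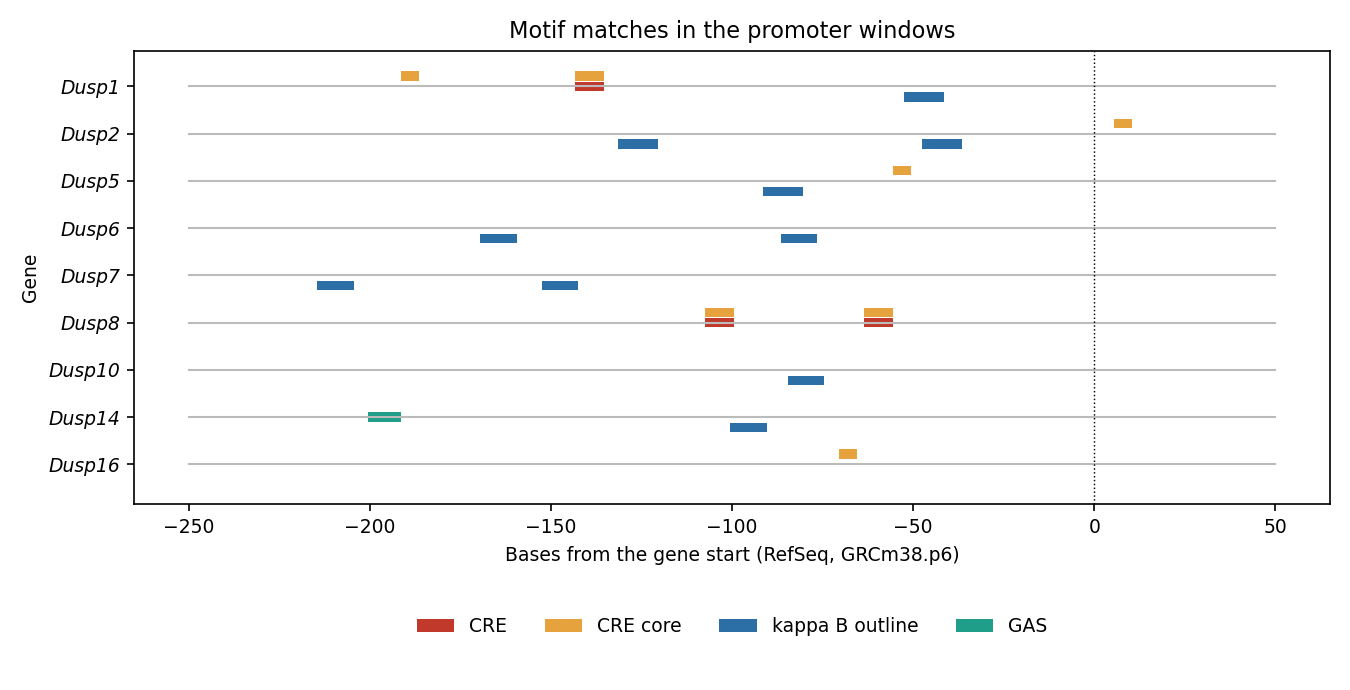
Motif matches in the RefSeq promoter windows of the 9 genes, with a grey line per gene. The horizontal axis, labelled as bases from the gene start, counts from the start used for each window. That start is internal to the annotated gene for Dusp7, Dusp8, Dusp14 and Dusp16. Coloured bars mark the cyclic AMP response element, its core, the kappa B outline and the GAS element; Dusp1 and Dusp8 are the genes with the full element, at -143 in Dusp1 and at -107 and -63 in Dusp8.

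Intensities on the arrays ranged from 42 to 31573 on a linear scale, with array medians between 162 and 167, and they are not comparable between probe sets. Arrays numbered 1 stood apart in all 6 groups. Eif2s3y, a Y-linked gene, lay between 9.81 and 10.3 (log2 intensity) on the number 1 arrays and between 5.98 and 6.19 on the others, while Xist, the RNA of the inactive X chromosome, averaged -4.32 (log2) on the number 1 arrays relative to the others. On average over the arrays, all 11 dendritic cell markers ranked above the array median, with Cd209a as low as 146 on one array, and their summed intensity ranged from 41487 to 60854 on NCFM arrays, against 49168 to 54454 on control arrays. In such bulk cultures fewer cells of a type and less RNA per cell cannot be told apart. Separate mice or cultures are not stated for the arrays. By Eif2s3y and Xist, the number 1 arrays had a male pattern and the others a female one, so the spread within each group includes that difference. The p-values reflect array-to-array spread, part of which may also be technical.

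At 4 h, 5 of the 10 phosphatase genes rose in NCFM cells (Dusp2, Dusp4, Dusp10, Dusp14 and Dusp16) and 2 fell (Dusp6 and Dusp7), by the limma test with Benjamini-Hochberg adjustment over all genes at an adjusted p under 0.05. At 10 h, 5 rose (Dusp1, Dusp2, Dusp4, Dusp14 and Dusp16) and 0 fell. At 18 h, the 5 genes that had risen at 10 h were again higher, and Dusp6 fell. Of all genes tested, 18.3% were called at 4 h, 24.7% at 10 h and 23.7% at 18 h. Higher calls made up 5.27% of all genes at the first time, 8.21% at the middle time and 7.4% at the last, and lower calls 13.1%, 16.5% and 16.3%. The median log2 change of the 10 genes was 0.80 at 4 h, 0.48 at 10 h and 0.40 at 18 h, against -0.01, 0.01 and 0.00 over all genes. Without the number 1 arrays, 7 rose and 2 fell at 4 h, 5 rose and 0 fell at 10 h, and 4 rose and 1 fell at 18 h. In that setting 25%, 24.4% and 29.8% of all genes were called at 4, 10 and 18 h.

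NCFM and control arrays did not overlap for 9 of the 10 genes at 4 h, 8 at 10 h and 7 at 18 h. Over all genes these shares were 36.5%, 52.1% and 47.2%. Removing either control array at 10 h left 3 genes called at that time, with Dusp4 and Dusp14 no longer passing. With the array number as a replicate block, 9 genes were called at 4 h, with 7 higher and 2 lower, 6 at 10 h and 6 at 18 h. The block also raised the shares of all genes called, to 26.8%, 31.1% and 30.5% at 4, 10 and 18 h. Centring each array on its hybridization controls changed the split to 6 higher and 1 lower at 4 h, 4 higher and 2 lower at 10 h, and 3 higher and 1 lower at 18 h. The same centring moved the median of all genes to 0.19 at 4 h and -0.24 at 10 h. It called 22.3% of all genes at 4 h, 37.6% at 10 h and 17.2% at 18 h.

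**Figure D2:**
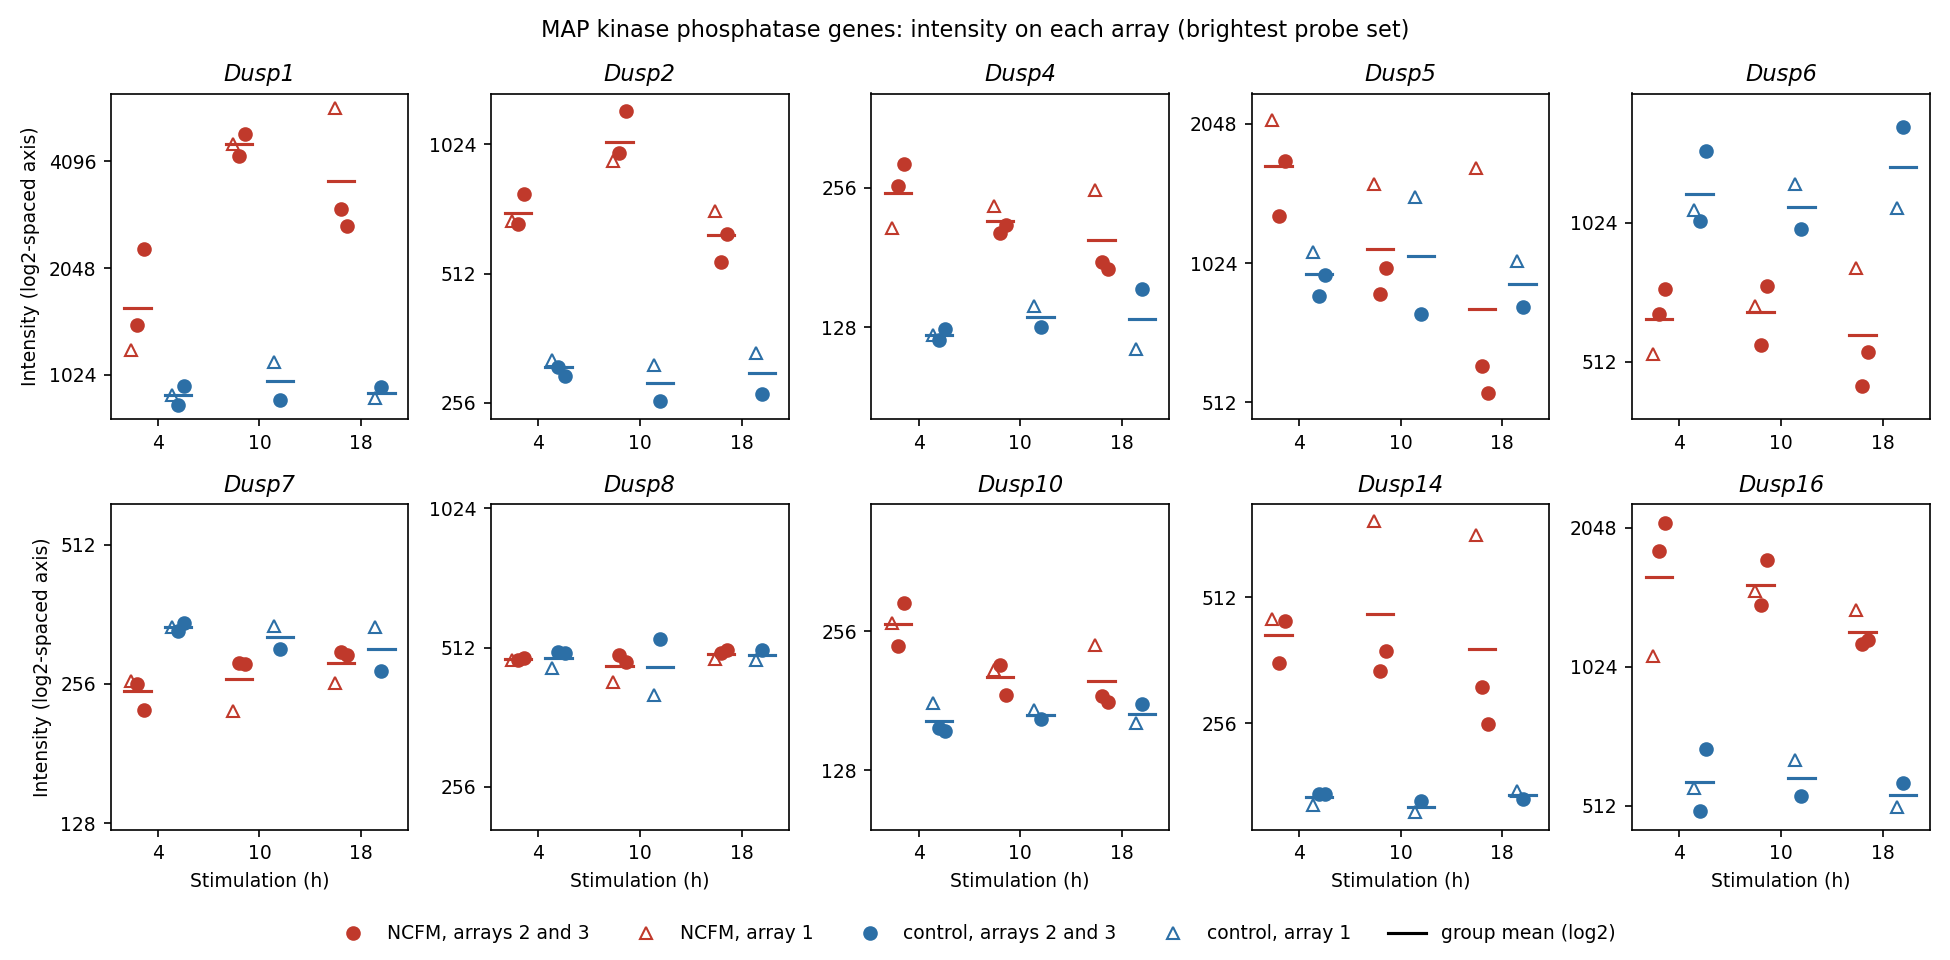
Intensity of each of the 10 genes on every array (vertical axis, log2-spaced) at 4 h, 10 h and 18 h (horizontal axis), with NCFM arrays in red left of control arrays in blue. Open triangles are the number 1 arrays, filled circles the others and bars the group means of log2 values; Dusp1, Dusp2, Dusp4, Dusp6, Dusp10, Dusp14 and Dusp16 were separated from control at all times, and Dusp8 overlapped at all times.

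Dusp1, whose enzyme acts on p38 and JNK in the nucleus and limits inflammatory cytokines, reached the largest rise of the 10 genes. Its intensity at 4 h was 1200, 1419 and 2326 on NCFM arrays, against 897, 844 and 955 on control arrays. At 10 h it was 4592, 4241 and 4910 on NCFM arrays, against 1115 and 868 on control arrays. At 18 h it was 5790, 3001 and 2692 on NCFM arrays, against 881 and 944 on control arrays. Every NCFM array lay above every control array of its time, and the number 1 array was the high one at 18 h. The log2 difference was 0.82 ± 0.27 (SE) at 4 h, which did not pass (adjusted p = 0.0564). It was 2.22 ± 0.30 at 10 h, or 4.65-fold (adjusted p = 0.000291), and 1.98 ± 0.30 at 18 h, or 3.95-fold (adjusted p = 0.000646). The 4 h difference passed with the array number as a block (adjusted p = 0.0464), without the number 1 arrays (1.02, adjusted p = 0.0143) and without NCFM array 1 of 4 h alone (1.02). Leaving out NCFM array 1 or NCFM array 3 of 18 h also brought the unchanged 4 h value of 0.82 past the threshold.

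Dusp2 encodes a nuclear phosphatase found mainly in blood and immune cells. At 4 h the intensity was 679, 667 and 786 on NCFM arrays, against 323, 311 and 296 on control arrays. By 10 h it was 936, 979 and 1221 on NCFM arrays, against 313 and 258 on control arrays. By 18 h it was 715, 546 and 634 on NCFM arrays, against 335 and 269 on control arrays. No NCFM array fell within the control range at any time. NCFM cells differed from control cells by a log2 value of 1.19 ± 0.13 (SE) at 4 h (adjusted p = 8.6e-05), 1.87 ± 0.15 at 10 h (adjusted p = 6.72e-06) and 1.06 ± 0.15 at 18 h (adjusted p = 0.00032). These are 2.29-fold, 3.65-fold and 2.09-fold, and the 3 calls held in all 27 alternative settings.

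Dusp4, a nuclear phosphatase related to Dusp1, was dim on control arrays. The 4 h intensities were 210, 258 and 288 on NCFM arrays, against 123, 120 and 127 on control arrays. The 10 h values were 234, 204 and 213 on NCFM arrays, against 142 and 128 on control arrays. The 18 h values were 253, 177 and 171 on NCFM arrays, against 115 and 155 on control arrays. The groups did not overlap at any time, and all 7 control values lay below the array medians. On the log2 scale the difference was 1.02 ± 0.16 (SE) at 4 h (adjusted p = 0.000888), 0.68 ± 0.18 at 10 h (adjusted p = 0.0138) and 0.56 ± 0.18 at 18 h (adjusted p = 0.0368). The 18 h call was lost without the number 1 arrays (0.17, adjusted p = 0.217), without NCFM array 1 (0.38) or control array 1 (0.35) of 18 h, and without control array 2 of 4 h at an unchanged 0.56. The 10 h call was lost without control array 1 (0.76) or control array 2 (0.61) of that time, and subtracting a background from each array raised the 3 differences to 1.66, 1.12 and 0.96.

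Dusp5, a nuclear phosphatase with a strong preference for ERK, passed at no time. After 4 h it read 2090, 1295 and 1703 on NCFM arrays, against 1083, 871 and 966 on control arrays. After 10 h it read 1516, 879 and 998 on NCFM arrays, against 1424 and 795 on control arrays. After 18 h it read 1645, 614 and 537 on NCFM arrays, against 1034 and 822 on control arrays. The groups were separate at 4 h and overlapped at 10 h and 18 h, and the number 1 array was the highest of its group in all 6 groups. This gave a log2 difference of 0.78 ± 0.38 (SE) at 4 h (adjusted p = 0.187), 0.05 ± 0.43 at 10 h (adjusted p = 0.945) and -0.18 ± 0.43 at 18 h (adjusted p = 0.807). Over the 6 groups the number 1 array exceeded the mean of the others by 0.24 to 1.52 (log2), with a mean of 0.69. The 4 h difference passed with the array number as a block (adjusted p = 0.0259) and without the number 1 arrays (0.70, adjusted p = 0.0128).

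Dusp6, the cytoplasmic phosphatase that inactivates ERK and is itself induced by ERK in many cell types, was lower with bacteria. At 4 h the intensities were 532, 648 and 734 on NCFM arrays, against 1088, 1034 and 1460 on control arrays. At 10 h the readings were 676, 557 and 745 on NCFM arrays, against 1241 and 991 on control arrays. At 18 h the readings were 817, 454 and 537 on NCFM arrays, against 1101 and 1649 on control arrays. All 9 NCFM values lay below all 7 control values. The fitted log2 difference was -0.90 ± 0.23 (SE) at 4 h, or 1.87-fold lower (adjusted p = 0.0179), and -1.21 ± 0.26 at 18 h, or 2.31-fold lower (adjusted p = 0.00517). At 10 h it was -0.76 ± 0.26 and did not pass (adjusted p = 0.0501), and with the array number as a block it was -0.83 (adjusted p = 0.0298). The 4 h call was lost without NCFM array 1 (-0.77) or control array 3 (-0.75) of that time, and the 18 h call without control array 2 of 18 h (-0.91). The unchanged 10 h value passed without NCFM array 1 or 2 of 18 h, control array 3 of 4 h, or either control array of 18 h.

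Dusp7 encodes the other cytoplasmic ERK phosphatase of the set. The 4 h values were 260, 256 and 225 on NCFM arrays, against 340, 333 and 346 on control arrays. The 10 h intensities were 224, 284 and 282 on NCFM arrays, against 341 and 305 on control arrays. The 18 h intensities were 257, 300 and 295 on NCFM arrays, against 340 and 273 on control arrays. The groups were separate at 4 h and 10 h and overlapped at 18 h. The change on the log2 scale was -0.46 ± 0.11 (SE) at 4 h (adjusted p = 0.0117), and it did not pass at 10 h (-0.30 ± 0.12, adjusted p = 0.0947) or 18 h (-0.10 ± 0.12, adjusted p = 0.584). The difference between the 18 h and 4 h effects was 0.36 ± 0.16 (unadjusted p = 0.0499, adjusted p = 0.32), so a smaller effect at 18 h was not established.

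Dusp16, which encodes a phosphatase that acts mainly on JNK, rose at all 3 times. After 4 h its intensity was 1078, 1822 and 2093 on NCFM arrays, against 561, 500 and 681 on control arrays. By 10 h it measured 1492, 1391 and 1743 on NCFM arrays, against 645 and 539 on control arrays. By 18 h it measured 1356, 1146 and 1168 on NCFM arrays, against 509 and 574 on control arrays. All 9 NCFM values lay above all 7 control values. The fit gave a log2 difference of 1.48 ± 0.21 (SE) at 4 h (adjusted p = 0.000447), 1.38 ± 0.23 at 10 h (adjusted p = 0.0011) and 1.17 ± 0.23 at 18 h (adjusted p = 0.00308). These are 2.78-fold, 2.6-fold and 2.26-fold, and the 3 calls held in all 27 alternative settings.

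Dusp10, whose enzyme acts on p38 and JNK and restrains innate cytokine production in mice, passed at 4 h. At 4 h it measured 266, 238 and 294 on NCFM arrays, against 179, 158 and 156 on control arrays. After 10 h the values were 211, 216 and 186 on NCFM arrays, against 173 and 165 on control arrays. After 18 h the values were 239, 185 and 180 on NCFM arrays, against 162 and 178 on control arrays. The groups were separate at each time, by the narrowest gap at 18 h. As a log2 difference, the change was 0.69 ± 0.11 (SE) at 4 h (adjusted p = 0.00126), and it did not pass at 10 h (0.27 ± 0.13, adjusted p = 0.14) or 18 h (0.23 ± 0.13, adjusted p = 0.211). The 10 h effect minus the 4 h effect was -0.42 ± 0.17 (adjusted p = 0.386) and the 18 h effect minus the 4 h effect was -0.46 ± 0.17 (adjusted p = 0.192), and neither passed. The difference between 18 h and 4 h passed without NCFM array 1 of 18 h (-0.59).

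Dusp8, the remaining phosphatase of the JNK and p38 class, stayed between 405 and 534 on all 16 arrays and passed at no time. The 4 h readings were 482, 482 and 487 on NCFM arrays, against 462, 500 and 499 on control arrays. The 10 h readings were 432, 493 and 476 on NCFM arrays, against 405 and 534 on control arrays. The 18 h readings were 484, 498 and 505 on NCFM arrays, against 482 and 506 on control arrays. The groups overlapped at all times. The log2 difference had a 95% interval of -0.19 to 0.18 at 4 h, -0.20 to 0.21 at 10 h and -0.20 to 0.21 at 18 h, with adjusted p-values of 0.959, 0.98 and 0.977.

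Dusp14, the atypical member, which in T cells of mice restrains receptor signalling through the adaptor Tab1, rose at all 3 times. At 4 h its intensity was 453, 357 and 448 on NCFM arrays, against 164, 174 and 174 on control arrays. At 10 h its values were 776, 341 and 382 on NCFM arrays, against 157 and 167 on control arrays. At 18 h its values were 721, 313 and 255 on NCFM arrays, against 177 and 169 on control arrays. All 9 NCFM values lay above all 7 control values, and the number 1 array was the high one at 10 h and 18 h. Its log2 difference was 1.29 ± 0.35 (SE) at 4 h (adjusted p = 0.0228), 1.52 ± 0.39 at 10 h (adjusted p = 0.0131) and 1.16 ± 0.39 at 18 h (adjusted p = 0.0491). Without the number 1 arrays it was 1.20 at 4 h, 1.11 at 10 h and 0.74 at 18 h (adjusted p = 0.00109, 0.00361 and 0.0162). The 4 h call was lost without NCFM array 1 (1.23) or 3 (1.24) of that time or without any of its 3 control arrays (1.26, 1.30 and 1.30), and the 10 h call without control array 1 (1.48) or 2 (1.57) of that time. The 18 h call was lost without any of 13 of the 16 arrays, with values down to 0.71 without NCFM array 1 of 18 h.

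**Figure D3:**
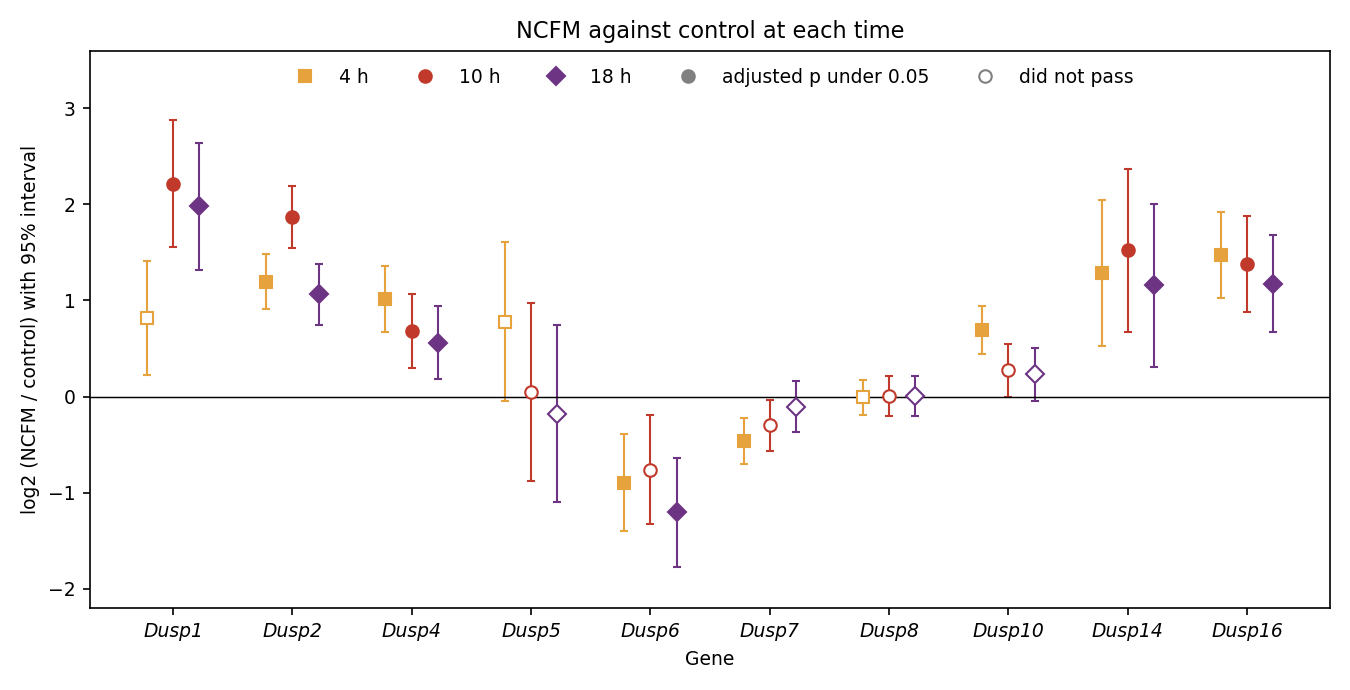
Log2 difference between NCFM and control cells (vertical axis) for each of the 10 genes at 4 h, 10 h and 18 h, with 95% intervals from the limma fit. Filled symbols passed at an adjusted p under 0.05; Dusp1 at 10 h was the highest at 2.22 and Dusp6 at 18 h the lowest at -1.21.

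The time course was examined within each treatment and as the difference between effects. Between 4 h and 10 h in NCFM cells, Dusp1 rose by a further 1.53 ± 0.27 (log2 difference ± SE, adjusted p = 0.00599) and Dusp2 by a further 0.55 ± 0.13 (adjusted p = 0.0287). No other of the 10 genes passed, against a background of 6.28% of all genes called and 2.4% called higher. Between 10 h and 18 h in NCFM cells, Dusp2 was the only one of the 10 to pass, at -0.73 ± 0.13 (adjusted p = 0.0137), against 2.79% of all genes called and 1.18% called lower. Dusp2 no longer passed between 4 h and 10 h without NCFM array 1 (0.52) or 2 (0.51) of 4 h or NCFM array 2 (0.59) or 3 (0.43) of 10 h. It no longer passed between 10 h and 18 h without NCFM array 3 of 10 h (-0.61) or NCFM array 2 of 18 h (-0.62). Control cells gave 0 calls among the 10 genes and 0 among all genes by limma between 4 h and 10 h and between 10 h and 18 h. At an unadjusted p under 0.05 those control comparisons held 0 of the 10 genes, with 553 and 653 of all genes.

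Differences between NCFM effects at separate times passed for 0 of the 10 genes by limma, and 3, 1 and 3 of them had an unadjusted p under 0.05 for 10 h minus 4 h, 18 h minus 10 h and 18 h minus 4 h. Over all 18193 genes, 1911, 1358 and 2837 had an unadjusted p under 0.05. After adjustment, the shares of all genes called were 0.506%, 0.0055% and 3.4%. For Dusp1 the 10 h effect minus the 4 h effect was 1.40 ± 0.41 (log2 difference ± SE, adjusted p = 0.183). For Dusp2 the 10 h effect minus the 4 h effect was 0.68 ± 0.20 (adjusted p = 0.183), and the 18 h effect minus the 10 h effect was -0.80 ± 0.21 (adjusted p = 0.26). Without the number 1 arrays, 3 genes passed for 18 h minus 4 h, namely Dusp4 (-0.98), Dusp5 (-1.21) and Dusp7 (0.62). Dusp4 and Dusp10 passed for 10 h minus 4 h after centring on the hybridization controls (-0.78 and -0.87).

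Several probe sets measured Dusp7, Dusp8, Dusp10 and Dusp16, and their differences were tested among all probe sets. The 3 probe sets of Dusp7 gave log2 differences of -0.46, -0.48 and -0.39 at 4 h, all past the threshold, and the dimmer 2 also passed at 10 h (-0.47 and -0.40, adjusted p = 0.0224 and 0.0139). For Dusp8, none of the 3 probe sets passed at any time, with values between -0.01 and 0.17. The brighter probe set of Dusp10 carried the 4 h rise of 0.69. The dimmer one read 134, 151 and 148 on NCFM arrays at 4 h, against 139, 136 and 130 on control arrays, a difference of 0.10 ± 0.06 (SE, adjusted p = 0.357), and averaging both gave 0.39 for the gene. At 18 h the average of both passed the threshold (0.21, adjusted p = 0.0407), and the brighter probe set did not. The dimmer probe set of Dusp16 read 126, 162 and 142 on NCFM arrays at 4 h, against 100, 89 and 84 on control arrays. It passed at 4 h (0.65) and 10 h (0.63) and not at 18 h (0.33, adjusted p = 0.0691), and averaging both lowered the 18 h value of the gene to 0.75.

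**Figure D4:**
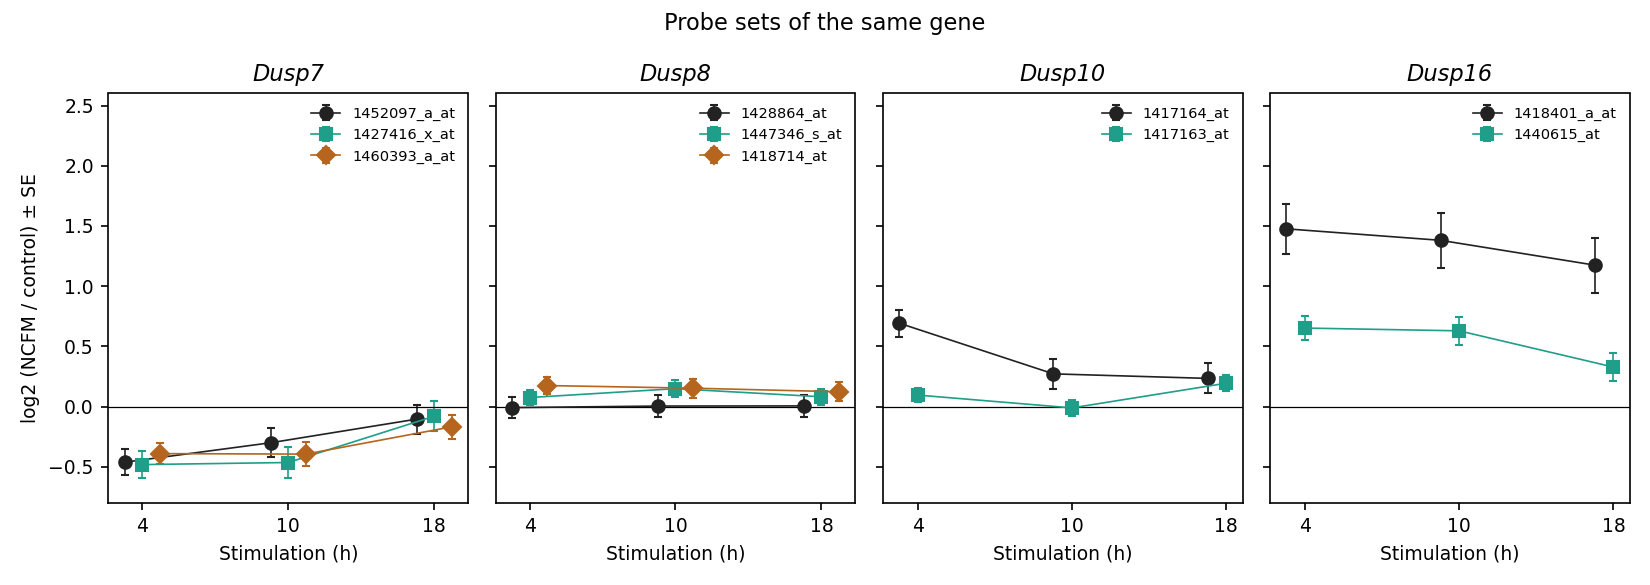
Log2 difference between NCFM and control cells (vertical axis, ± SE) at 4 h, 10 h and 18 h for every probe set of the 4 genes with several. The probe sets of Dusp7 lay close together, between -0.39 and -0.48 at 4 h, while those of Dusp10 lay at 0.69 and 0.10.

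Among the 10 genes, levels over the 16 arrays (log2) were most alike for Dusp4 and Dusp16 (Pearson r = 0.946) and for Dusp2 and Dusp16 (r = 0.921), and most opposed for Dusp4 and Dusp7 (r = -0.903). In the whole table the genes most like Dusp1 were Alcam, Fgfbp3 and Plat (r = 0.976, 0.970 and 0.967). Those most like Dusp2 were Samhd1, Ankib1 and Cd40 (r = 0.973, 0.971 and 0.971). For Dusp4 they were Nfkbie, Rgs1 and Ncoa7 (r = 0.966, 0.965 and 0.963), and for Dusp16 Htra4, Clic4 and Nfkbie (r = 0.976, 0.973 and 0.972). Dusp14 was most like Tpbg, Ccl7 and Tnfsf4 (r = 0.982, 0.959 and 0.957), and Dusp10 most like Zbtb10, Ifi203 and Plk2 (r = 0.913, 0.911 and 0.902). The closest genes to Dusp6 were Anapc2, Nsmce3 and Trim11 (r = 0.955, 0.947 and 0.944), and to Dusp7 Klf4, Plekho1 and Slc16a6 (r = 0.900, 0.893 and 0.891). Dusp5 was closest to Gm266, Plaur and 4930503L19Rik (r = 0.899, 0.898 and 0.898), and Dusp8 to Epb41l5, Fam20a and Crat (r = 0.863, 0.851 and 0.851). The 16 points share the treatment, the time and the array number, so these values describe likeness over this design.

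The other dual specificity phosphatases measured, and the genes of the kinase pathways around them, were counted from the same fit. Each list count here and below stands beside the shares of all genes. Higher calls made up 5.27%, 8.21% and 7.4% of all genes at 4, 10 and 18 h. Lower calls made up 13.1%, 16.5% and 16.3%. Several list counts lie near these shares, and no list was tested as a set. Of 19 other dual specificity phosphatases measured, 1 rose and 4 fell at 4 h, 1 rose and 6 fell at 10 h, and 1 rose and 6 fell at 18 h. Ssh2, a phosphatase of cofilin, was lower at each time (log2 difference -1.33, -1.29 and -1.65), as was Dusp3, a small phosphatase of ERK and JNK (-0.83, -1.05 and -1.05). The other 2 probe sets of Dusp3 gave -0.03 to 0.12 over the 3 times. Dusp28 was the one that rose (0.28, 0.74 and 0.60). Of 8 other phosphatases on a list drawn up around MAP kinase pathways, 2 rose and 1 fell at 4 h. At 10 h, 2 rose and 0 fell, and at 18 h, 0 rose and 2 fell. Ppm1k, on this list, was at 1.26 at 4 h and 1.15 at 10 h. Whether each of the 8 acts on MAP kinases was not tested. Of 7 Sprouty and Spred genes, which encode inhibitors of the path to ERK, 1 rose at 4 h, 1 at 10 h and 3 at 18 h, and Spred1 passed at each time (1.56, 1.68 and 0.99).

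Among the 11 MAP kinases measured, Mapk14, the p38 alpha kinase that several of these phosphatases inactivate, fell at each time (log2 difference -1.27 ± 0.15, -1.90 ± 0.17 and -1.33 ± 0.17 SE). Its other 5 probe sets gave -0.43 to 0.16 at 4 h, -0.91 to 0.15 at 10 h and -0.45 to 0.07 at 18 h. In all, 1 MAP kinase rose and 1 fell at 4 h, 2 rose and 1 fell at 10 h, and 1 rose and 1 fell at 18 h. The 2 that rose at 10 h no longer passed after centring on the spike-in or hybridization controls, and one of them, Mapk10, turned negative with hybridization control centring. Of 6 MAP kinase kinases, 1 rose at 4 h, 1 rose and 1 fell at 10 h, and 2 rose and 2 fell at 18 h. Map2k1, an activator of ERK, rose at each time (0.92, 1.09 and 1.05). With the array number as a block, 1 rose and 4 fell among these kinase kinases at 10 h, and among the MAP kinases 3 rose and 2 fell. At 18 h, 1 kinase kinase rose and 2 fell with the block. Map2k6, the second that rose at 18 h, missed the threshold there (0.42, adjusted p = 0.0513) and after centring on the spike-in or hybridization controls (adjusted p = 0.0617 and 0.0732).

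Of 15 MAP3 kinases, 1 rose and 5 fell at 4 h, 1 rose and 5 fell at 10 h, and 0 rose and 2 fell at 18 h. Lower calls made up 13.1%, 16.5% and 16.3% of all genes at these times. Map3k8, which relays Toll-like receptor signals to ERK, was the one that rose, by 1.68 ± 0.23 (log2 difference ± SE) at 4 h and 0.88 ± 0.26 at 10 h. The 10 h call of Map3k8 was lost after hybridization control centring (0.63, adjusted p = 0.0686) and without the number 1 arrays (0.91, adjusted p = 0.0516). Map3k4 fell at 4 h (-1.02) and 10 h (-0.92), and its other 3 probe sets gave -0.50 to -0.32 and -0.52 to -0.46. Map3k20 fell at 10 h (-0.89), where its other 3 probe sets gave -0.17 to -0.04. With the array number as a block, 3 MAP3 kinases rose and 7 fell at 10 h, and after centring on the hybridization controls 1 fell at 4 h and 10 fell at 10 h. Of 8 kinases activated by MAP kinases, 1 rose and 3 fell at 4 h, 0 rose and 3 fell at 10 h, and 0 rose and 2 fell at 18 h. Mapkapk2, the p38 target kinase that stabilises cytokine transcripts, was at 0.95 at 4 h, and Mknk1, a kinase of a translation initiation factor, fell at each time (-0.73, -1.10 and -1.22). The other 2 probe sets of Mknk1 gave smaller falls, of -0.34 to -0.24 at 4 h. They gave -0.43 to -0.12 at 10 h and -0.65 to -0.15 at 18 h. With the block, 5 of the 8 kinases activated by MAP kinases fell at 10 h. Of 12 scaffold and tether genes, 0 rose and 1 fell at 4 h, 2 rose and 2 fell at 10 h, and 0 rose and 2 fell at 18 h, with 1 rising and 1 falling at 4 h and 1 rising and 3 falling at 18 h with the block.

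Immediate early genes are the classical transcripts induced by MAP kinase signals. Of 19 measured, 6 rose and 0 fell at 4 h, 4 rose and 5 fell at 10 h, and 5 rose and 1 fell at 18 h. Atf3 rose at each time (log2 difference 1.50, 1.48 and 1.92), as did Zfp36, which promotes decay of cytokine transcripts (1.13, 1.23 and 0.98), and Junb (1.06, 0.83 and 1.09). Zfp36 did not pass at 18 h without the number 1 arrays (0.51, adjusted p = 0.179), nor Junb at 10 h after hybridization control centring (0.58, adjusted p = 0.0510). Egr1 rose at 4 h (1.48 ± 0.31 SE), and at 10 h its difference was -0.35 (adjusted p = 0.491). Myc fell at 10 h (-1.47), with Egr2 (-1.12) and Ier2 (-1.09), and with quantile normalization Myc and Egr2 missed the threshold there (adjusted p = 0.0530 and 0.0659). Without the number 1 arrays, 8 rose and 1 fell at 4 h, 6 rose and 6 fell at 10 h, and 4 rose and 5 fell at 18 h.

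**Figure D5:**
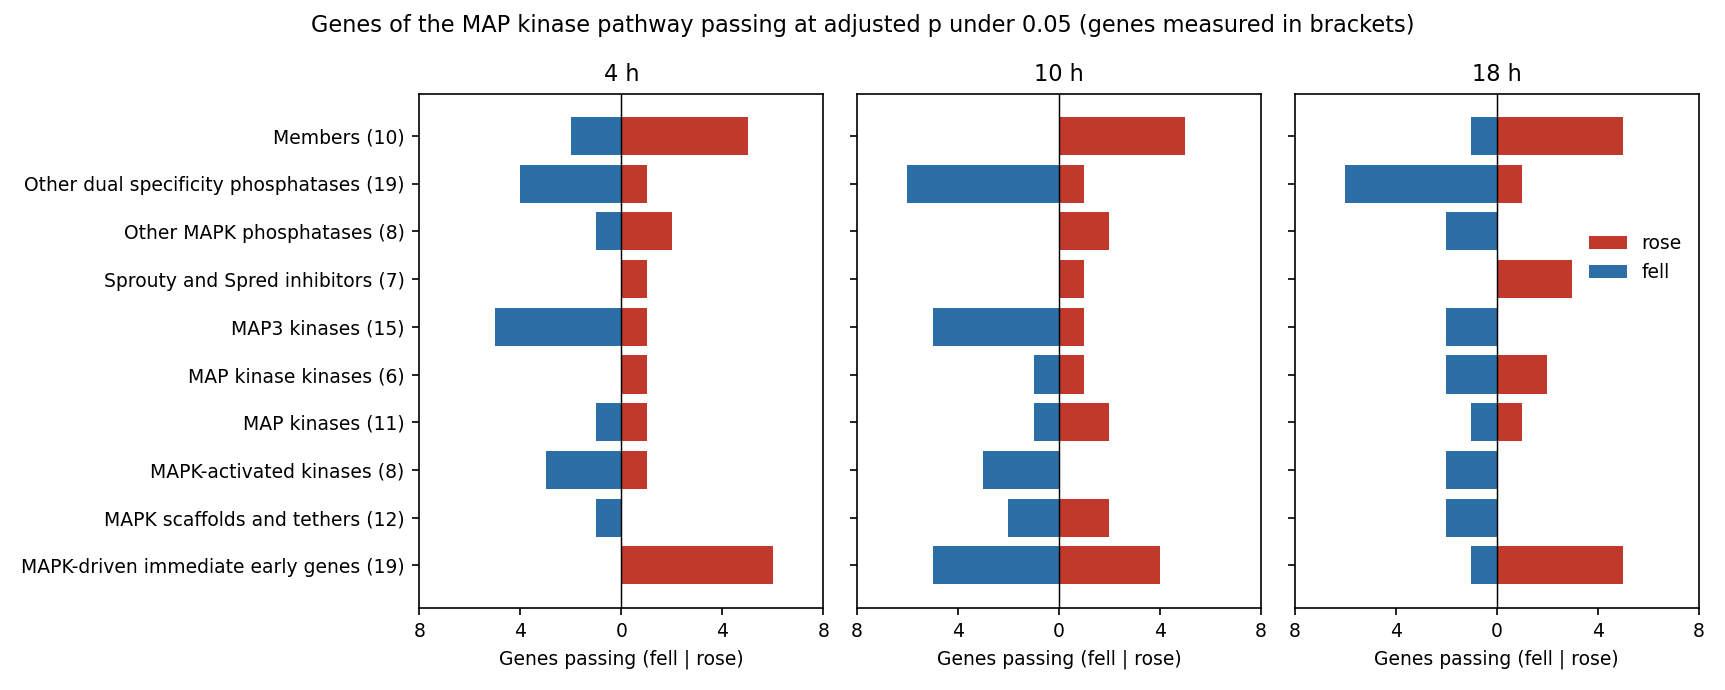
Number of genes of each list that rose (red, right) or fell (blue, left) in NCFM cells against control cells at 4 h, 10 h and 18 h, with the number measured in brackets. The 10 phosphatases have 5 risers at each time, the other dual specificity phosphatases 4 to 6 fallers, and the immediate early genes 6 risers and 0 fallers at 4 h.

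Markers of other cells moved between the groups beside these changes. The 7 neutrophil markers measured summed to 7730 to 35702 at 4 h, 12913 to 34015 at 10 h and 5556 to 16953 at 18 h on NCFM arrays, against 28390 to 40892, 39041 to 47401 and 22751 to 25519 on control arrays. All 7 ranked above the array median on average, with Mpo as low as 148 on one array. Of the 7, 0 rose at any time, and 0, 2 and 1 fell at 4, 10 and 18 h. Ltf, a granule protein, fell at 10 h (log2 difference -1.68) and 18 h (-1.61), and Elane, a granule protease, fell at 10 h (-0.52). With quantile normalization, 1 of the 7 rose at 4 h and 0 fell at any time (Ltf, adjusted p = 0.0583 at 10 h and 0.0763 at 18 h), and the 18 h call of Ltf was also lost after hybridization control centring (adjusted p = 0.0557). The 8 macrophage markers summed to 29289 to 55700 on NCFM arrays and 24228 to 47977 on control arrays, with Fcgr1 higher at each time (1.06, 1.57 and 1.40) and Marco higher at 10 h (2.20) and 18 h (2.06). Of these 8, 1 rose and 0 fell at 4 h, 3 rose and 0 fell at 10 h, and 2 rose and 1 fell at 18 h. The one that fell was Itgam (-1.07), which missed the threshold with quantile normalization (adjusted p = 0.0584) and without the number 1 arrays (adjusted p = 0.0885), and Csf1r, the receptor for macrophage colony-stimulating factor, was at -0.36, -0.66 and -0.56 without passing. The other 2 probe sets of Csf1r were lower still, at -0.59 to -0.55 at 4 h. They gave -1.33 to -1.29 at 10 h and -0.89 to -0.85 at 18 h. Of the 11 dendritic cell markers, 0 rose at any time, and 0, 1 and 3 fell at 4, 10 and 18 h. Itgax, an integrin gene on this marker list, fell at 10 h (-0.61) and 18 h (-0.81), and Ciita (-0.54) and Cd74 (-0.23) fell at 18 h. The other 2 probe sets of Ciita gave 0.01 and 0.03 at 18 h. With quantile normalization Ciita missed the threshold there (-0.35, adjusted p = 0.158). The median of the 11 was -0.03 at 10 h, where Irf8 (0.78) and Zbtb46 (0.77) did not pass. The other probe set of Irf8 gave 0.81, 1.23 and 1.31 at 4, 10 and 18 h. At 18 h the brighter probe set of Irf4 gave -0.37 and the other 0.83. Lower values came from the other 3 probe sets of Zbtb46 at 10 h (0.04 to 0.28). Those of H2-Ab1 at 18 h gave -0.31 and -0.29, against -0.20 for the brightest. The calls of Ciita and Cd74 were lost after hybridization control centring and without the number 1 arrays. The lists of mast cell and basophil, T cell, B cell, NK cell, erythroid and stromal markers each summed to 1363 or less on every array. Of these, Kit fell (-1.04) and Ms4a2 rose at 18 h, Klrd1 fell at 10 h (-0.92) and 18 h (-1.15), and Alas2 and Dcn rose at 18 h. The other probe set at 18 h gave -0.18 for Kit, -0.03 for Ms4a2 and 0.15 for Dcn. Over all arrays Ms4a2 read only 105 to 134 and Alas2 101 to 135. The part of these cells in the changes of the phosphatase genes was not tested.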

How the data were processed

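Total RNA of 16 samples was hybridised as biotin-labelled RNA. The authors deposited 1 linear intensity per probe set and array; how probe sets were summarised and normalised is not stated in the labels or the file. Of 45101 probe sets, 34945 named 1 gene in the platform annotation, 932 several, and 9160 were unnamed here, besides 64 control probe sets. Each gene was read from its brightest probe set over the 16 arrays. In R 4.3.3, limma 3.58.1 fitted the log2 intensities with a mean per group (10 residual degrees of freedom), moderated the variances with eBayes, and gave two-sided p-values adjusted by Benjamini-Hochberg over 18193 genes. Figures used Python 3.11.15 and matplotlib 3.10.9. Background subtraction, as an alternative, took the 5th percentile of each array and a floor of 16; hybridization control centring used 18 probe sets and spike-in centring 45. The number of arrays limits the precision. The main fit did not pair samples, because what an array number shares is not stated in the labels. The array number was a block only in an alternative setting. All 36 correlations of deviations from group means between same-numbered arrays of different groups exceeded 0.1 (0.19 to 0.75, median 0.42). Between arrays of different number, 13 of 70 did (-0.75 to 0.73, median -0.32). Arrays of a group share its mean, so these correlations are not independent. The 10 genes and all gene lists (168 of 185 genes measured) were chosen with earlier results of these data known. Named are the 10 genes, at most 4 genes per list and comparison with the largest change among those that passed, and the 3 genes most correlated with each of the 10. A setting that leaves 1 control array at 10 h or 18 h assumes that it varies like the other groups.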

Additional observations from a re-analysis of the deposited data

How the results depend on the processing

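Across 27 alternative settings, no called difference of a phosphatase gene between NCFM and control cells changed direction. Leaving arrays out, singly in 16 of these settings or all of number 1, could not turn those signs, because the groups did not overlap. The signs that turned were those of Dusp5, Dusp7 and Dusp8, which had not passed at those times. For Dusp8 at 4 h the log2 difference was 0.13 with quantile normalization, 0.057 with spike-in centring, 0.18 with hybridization control centring and 0.080 as the mean of its probe sets. At 10 h Dusp8 was at -0.12 with spike-in centring, -0.25 with hybridization control centring, -0.0091 with the replicate block and -0.14 without the number 1 arrays, and at 18 h it was at -0.028, -0.0078 and -0.013 with spike-in centring, the replicate block and the arrays numbered 2 and 3. Dusp5 was at -0.078 (spike-in centring) and -0.21 (hybridization control centring) at 10 h and at 0.0070 (quantile normalization) at 18 h, and Dusp7 was at 0.12 at 18 h without the number 1 arrays. Leaving out each array in turn gave Dusp8 -0.047 to 0.011 at 4 h, -0.20 to 0.20 at 10 h and -0.030 to 0.040 at 18 h, Dusp5 -0.37 to 0.47 at 10 h and -0.68 to 0.12 at 18 h, and Dusp7 -0.26 to 0.054 at 18 h. The cause was not tested.

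Fitting only the groups compared, with fewer samples to estimate the spread, left 3 genes called at 18 h, 1 between 10 h and 4 h in NCFM cells and 0 between 18 h and 10 h in NCFM cells, and it brought Dusp5 at 4 h (adjusted p = 0.0383) and Dusp6 at 10 h (adjusted p = 0.0339) past the threshold. Of all genes, fitting only the groups compared called 13.5% at 18 h. Hybridization control centring, added after seeing the data, called 2 effect differences for 10 h minus 4 h. Without the number 1 arrays, 3 effect differences for 18 h minus 4 h passed, 4 genes between 10 h and 4 h in NCFM cells and 2 between 18 h and 10 h. Leaving out each array in turn, 3 to 6 genes were called at 10 h, 0 to 1 effect differences for 18 h minus 4 h, 1 to 3 genes between 10 h and 4 h in NCFM cells and 0 to 1 between 18 h and 10 h. The replicate block changed no other call of a phosphatase gene against control than the 3 given with Dusp1, Dusp5 and Dusp6. Among single genes, spike-in or hybridization control centring also ended the 18 h calls of Dusp4 and Dusp14, hybridization control centring the 4 h call of Dusp7 (-0.27) and the 10 h call of Dusp4 (0.43), and fitting only the groups compared the 18 h calls of Dusp4, Dusp6 and Dusp14; testing all probe sets ended that of Dusp14. Quantile normalization, either centring and leaving out dim genes brought Dusp1 past the threshold at 4 h, and either centring and averaging probe sets brought Dusp6 and Dusp7 past it at 10 h. Over the phosphatase, marker and pathway lists together, 134 calls against control were recomputed with quantile normalization, both centrings, the replicate block and without the number 1 arrays; of these 670 values, 83 no longer passed and 1 changed sign. Detection calls were not used here, so the control levels of dim probe sets such as that of Dusp4 may lie at background.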
